A study of Mus musculus with 3 samples.

Results

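Oxidative phosphorylation is carried out in the inner mitochondrial membrane by 5 protein complexes, and the nuclear genes for their subunits were described here in 3 cell fractions of mouse epididymal fat. The members were the genes on the array whose symbols begin as the subunit genes of complex I (Nduf), complex II (Sdh), complex III (Uqcr), complex IV (Cox4 to Cox8) or complex V (Atp5). This rule found 84 of the 37073 genes read on the arrays. Of the 84 genes, 79 were in lists of structural subunits, 35 of complex I, 4 of complex II, 8 of complex III, 17 of complex IV and 15 of complex V. The other 5 share the symbols without being listed subunits, and they were the pseudogene Atp5c1-ps, Atp5s and Atp5sl, Cox7a2l and Ndufa4l2.

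The fat came from male C57/BL mice aged 20 weeks, and 3 groups were made from it by collagenase digestion and 2 spins. Cells that did not float after a brief spin were the stromal vascular cells (SVC). The floating cells were spun again, which left mature adipocytes (MA) on top and small proliferative adipocytes (SPA) in the sediment. SVC and SPA were grown in DMEM until near confluence, whereas no culture was described for MA, so the culture and the kind of cell cannot be told apart where MA is compared. The titles of the records also give MA another date than SVC and SPA, and this date cannot be told apart from the group. Each group was measured once, on 1 Agilent 1-colour array, and the labels do not say how many mice gave the RNA. The differences below therefore have no replicate check, and they are given as values, without a test.

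Levels are log2 processed signals relative to the 75th percentile of the same array, and a log2 ratio is the difference of 2 levels of 1 probe. A value of 1 is thus 2-fold. The array software marked between 58.6% and 61.4% of the spots on an array as well above background, and 0 as saturated. Probes spotted many times gave an SD of a log2 ratio of 0.06 within an array in every comparison, which covers the error of the spots only and not that of the cells, the RNA or the labelling.

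The markers of the fractions were read first. Of 10 adipocyte markers, 8 were measured on both arrays in SPA over SVC, with a median log2 ratio of 4.06. Adipoq, the adipokine adiponectin, and Plin1, which coats the lipid droplet, were not well above background in SVC, and their bounds were at least 6.52 and at least 5.86. In MA over SPA all 10 were measured on both arrays, with a median of 5.19. The MA array also had higher levels of 6 of 6 endothelial markers, all at least 5-fold over SPA, with a median log2 ratio of 3.61. Of 6 erythroid markers, 4 were at least 5-fold higher in MA, among them the globin gene Hba-a1 at -2.63 in SVC, -2.52 in SPA and 8.38 in MA, while Epb4.2 was not well above background on any array. The summed log2 level of the endothelial list was 1.09 in SVC, 1.30 in SPA and 4.89 in MA. For 8 stromal cell markers it was 9.04 in SVC, 8.10 in SPA and 8.87 in MA. For 8 macrophage markers it was 7.12, 7.42 and 6.44 in the same order. Every marker of these lists was well above background on all 3 arrays. In MA over SPA 5 stromal markers were higher and 3 lower, and 3 macrophage markers were higher and 5 lower. The part of these other cells in the results below was not tested. In a bulk sample, more cells of a type and more RNA per cell cannot be told apart.

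Electrons enter the respiratory chain from NADH at complex I and from succinate at complex II. They pass over coenzyme Q to complex III and over cytochrome c to complex IV, where oxygen is reduced. Complexes I, III and IV pump protons, and complex V, the ATP synthase, uses the gradient to make ATP. Most subunits are encoded in the nucleus, and a few core subunits of complexes I, III, IV and V are encoded in mitochondrial DNA. Several complex IV subunits exist as a ubiquitous form and as a form typical of heart, skeletal muscle and brown fat, and white adipocytes store lipid and hold fewer mitochondria than brown ones.

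Promoters of both kinds of complex IV isoform are shown because the results turn on these pairs. That of Cox6a2, also of the heart and muscle type, is not shown, so this type is seen in Cox7a1 and Cox8b only. Each sequence spans 300 bases around the RefSeq start of the gene in GRCm38.p6 and is written 5′ to 3′ on the strand of the gene. Capitals mark matches to 4 motifs, which were searched on both strands: NRF1 as GCATGCGC, ETS (the family of GABP) as CCGGAAG, ERR as TCAAGGTCA and YY1 as AAGATGGC. Cox6a1 lies at chr5:115348909-115349208 on the minus strand, Cox8a at chr19:7217567-7217866 on the minus strand and Cox7a2 at chr9:79759804-79760103 on the minus strand. These are the ubiquitous forms. Cox7a1 at chr7:30183921-30184220 on the plus strand and Cox8b at chr7:140900397-140900696 on the minus strand are of the heart and muscle type.
Cox6a1: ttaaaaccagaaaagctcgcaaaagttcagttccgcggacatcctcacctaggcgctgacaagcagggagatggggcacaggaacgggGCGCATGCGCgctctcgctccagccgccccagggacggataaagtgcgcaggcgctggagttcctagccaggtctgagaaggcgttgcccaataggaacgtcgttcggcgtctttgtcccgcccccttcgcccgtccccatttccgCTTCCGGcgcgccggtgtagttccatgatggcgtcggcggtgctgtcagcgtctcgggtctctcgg
Cox8a: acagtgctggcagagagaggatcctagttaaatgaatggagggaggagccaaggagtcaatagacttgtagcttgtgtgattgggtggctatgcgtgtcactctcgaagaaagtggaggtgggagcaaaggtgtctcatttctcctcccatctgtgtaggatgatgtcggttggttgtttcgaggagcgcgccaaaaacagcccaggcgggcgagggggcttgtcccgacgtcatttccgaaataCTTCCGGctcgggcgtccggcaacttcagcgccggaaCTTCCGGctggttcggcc
Cox7a2: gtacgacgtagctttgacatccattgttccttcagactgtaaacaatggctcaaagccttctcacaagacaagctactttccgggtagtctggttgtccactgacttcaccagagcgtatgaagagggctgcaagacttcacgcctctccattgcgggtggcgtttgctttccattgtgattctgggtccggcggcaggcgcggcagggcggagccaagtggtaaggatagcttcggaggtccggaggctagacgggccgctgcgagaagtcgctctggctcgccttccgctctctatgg
Cox7a1: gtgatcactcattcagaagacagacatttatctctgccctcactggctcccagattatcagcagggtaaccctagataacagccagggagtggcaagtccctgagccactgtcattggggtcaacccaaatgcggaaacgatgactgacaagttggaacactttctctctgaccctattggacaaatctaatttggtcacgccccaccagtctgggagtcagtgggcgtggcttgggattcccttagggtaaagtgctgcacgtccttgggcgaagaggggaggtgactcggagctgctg
Cox8b: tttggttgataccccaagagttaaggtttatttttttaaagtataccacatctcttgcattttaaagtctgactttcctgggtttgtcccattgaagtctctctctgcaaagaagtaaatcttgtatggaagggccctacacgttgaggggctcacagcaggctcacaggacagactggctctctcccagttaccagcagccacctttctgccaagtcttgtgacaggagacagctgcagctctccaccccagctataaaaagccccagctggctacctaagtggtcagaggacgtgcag

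The Cox6a1 promoter held 3 matches, of which 1 was to ETS and 2 were to NRF1, on opposite strands and overlapping each other. The Cox8a promoter held 2 matches to ETS. No match to the 4 motifs was found in the windows of Cox7a2, Cox7a1 and Cox8b. The number of CG pairs was 32 in Cox6a1, 19 in Cox8a and 20 in Cox7a2, and it was 7 in Cox7a1 and 2 in Cox8b.

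A promoter was found for 68 of the 84 members. An NRF1 match was in 10 of them, 14.7%, and in 3.93% of the 17491 protein-coding genes with a promoter. ETS was matched in 23.5% of the members and 12.9% of all genes, YY1 in 16.2% and 3.57%, and ERR in 2 members, Atp5g3 and Sdhd, and 0.377% of all genes. At least 1 of the 4 motifs was in 32 members, 47.1%, and in 19.0% of all genes. The median number of CG pairs was 19 in the promoters of members and 13 in those of all genes. The NRF1 and ETS motifs hold a CG pair, and the shares were not adjusted for this. These shares are descriptions of letters in a window and not of binding. The median log2 ratio of MA over SPA was 0.56 over the 32 members with a match and 0.67 over the 35 without one that were measured, and their quartiles overlapped, from 0.35 to 0.67 with a match and from 0.41 to 0.78 without.

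Between the cultured fractions the subunit genes differed little. In SPA over SVC, 82 members were well above background on at least 1 array, and 81 on both. Their median log2 ratio was 0.09, with quartiles of 0.02 and 0.18, beside a median of 0.05 and quartiles of -0.17 and 0.28 over all genes measured on both arrays. Of the 81 members, 72 (88.9%) lay within 0.25 of no change on the log2 scale, and so did 52.8% of all genes. The ratio was above 0 for 65 members, and for 56.0% of all genes. At least 2-fold higher in SPA were 2 members, Ndufa4l2 and Cox7a1, beside 3.9% of 22663 genes, and at least 2-fold lower were 0, beside 3.25%. At least 5-fold higher was 1 member, Ndufa4l2, beside 0.322% of all genes, and 0 were at least 5-fold lower, beside 0.353%. With the normexp background correction Ndufa4l2 was at 2.27 and Cox7a1 at 0.97 on the log2 scale, which left 1 member past 2-fold and 0 past 5-fold. In the same pair of arrays 7 of the 10 adipocyte markers were at least 5-fold higher in SPA.

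In MA the subunit genes were higher than in SPA as a group, by a modest amount and with few exceptions. The median log2 ratio over 82 members measured on both arrays was 0.60, which is 1.51-fold, with quartiles of 0.33 and 0.80. Over all genes the median was -0.08 and the quartiles were -0.71 and 0.52. The ratio was above 0 for 76 of the 82 members, and for 46.3% of all genes. Few members passed 2-fold. Of 83 members read, 5 were at least 2-fold higher in MA, beside 15.8% of 23956 genes, and 2 were at least 2-fold lower, beside 17.9%. At least 5-fold higher was 1 member, Cox8b, beside 5.49%, and at least 5-fold lower was 1, Cox6a2, beside 3.98%. With the normexp correction Cox6a2 was at -1.99 on the log2 scale, under 5-fold. The count of 5 rests on the scaling: 47 members passed 2-fold upwards under quantile normalization, the first 5 among them, and the median was then 1.05. Of all genes 4071 were at least 2-fold higher under quantile normalization, beside 3781 by the main scaling. The members thus lay under the share of all genes by the main scaling and above it under quantile normalization.

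MA over SVC shares the MA array with the previous comparison and was much alike. The median of 81 members was 0.65, beside -0.07 over all genes, and 76 of 81 members were above 0, beside 47.1% of all genes. At least 2-fold higher were 13 of 83 members, beside 17.3% of 23453 genes, which is 4048 genes. Under quantile normalization 53 members were, beside 4095 of all genes, and the median of the members was 1.13. By the main scaling 2 members were at least 2-fold lower, beside 18.0%. Again 1 member was at least 5-fold higher, beside 5.74%, and 1 was at least 5-fold lower, beside 3.97%. Of the 81 members well above background on all 3 arrays, 75 had their highest level in MA, 4 in SPA and 2 in SVC, and 61 had levels in the ascending order SVC, SPA, MA. Of the 19865 genes well above background on all 3 arrays, 40.0% were highest in MA and 25.4% had that order.

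**Figure D1:**
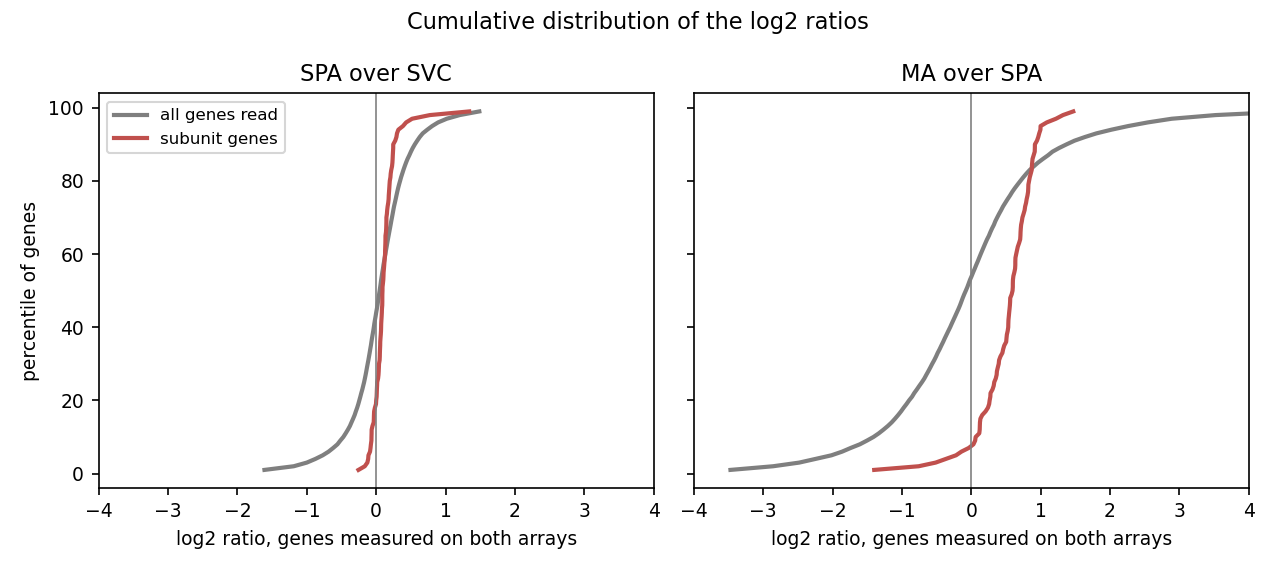
Cumulative distribution of log2 ratios in SPA over SVC and in MA over SPA (x axis, log2 ratio; y axis, percentile of genes) for the subunit genes and for all genes measured on both arrays. The curve of the subunit genes is steep around a median of 0.09 in SPA over SVC and lies around a median of 0.60 in MA over SPA, while the curve of all genes widens around -0.08.

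**Figure D2:**
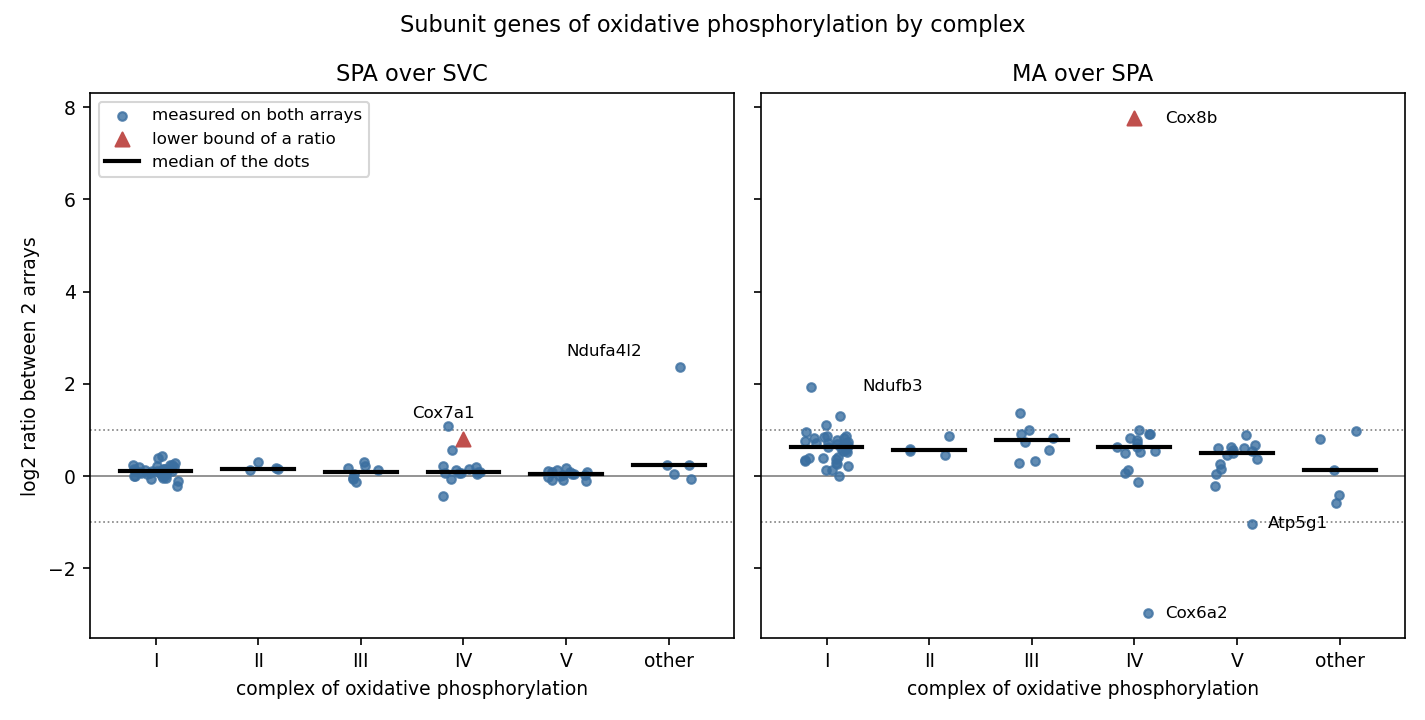
Log2 ratio of each subunit gene (y axis) by complex (x axis) in SPA over SVC and in MA over SPA; dots are genes measured on both arrays, triangles are lower bounds, black bars are medians of the dots and dotted lines mark 2-fold. In MA over SPA the dots of every complex lie mostly between 0 and 1, with Cox8b far above at a bound of 7.76 and Cox6a2 far below at -2.97.

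Complex I takes electrons from NADH, and its 35 members were all higher in MA than in SPA. The median log2 ratio was 0.63, and the range ran from 0.01 for Ndufa11 to 1.94 for Ndufb3. The 7 core subunits, which belong to the arm with the flavin and the iron-sulfur clusters, had the same median of 0.63 as the 28 supernumerary ones. Core subunits ranged from 0.32 for Ndufs7 to 0.87 for Ndufs3, which was at 4.74 in SVC, 4.63 in SPA and 5.50 in MA. In SPA over SVC the 35 genes ranged from -0.21 to 0.44.

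Ndufb3, a supernumerary subunit of the membrane arm, was at 3.60 in SVC, 3.66 in SPA and 5.60 in MA. The cultured fractions were alike and MA was 3.83-fold higher than SPA. Ndufb9, of the same arm, was at 4.96 in SVC, 5.05 in SPA and 6.35 in MA, a 2.46-fold difference between MA and SPA. Ndufa1, encoded on the X chromosome and needed for assembly of the membrane arm, was at 4.31, 4.75 and 5.87 in the same order and was 2.17-fold higher in MA than in SPA. It also had the highest ratio of complex I in SPA over SVC, at 0.44. Next in that comparison was Ndufa6, a subunit of the LYR family, at 4.43 in SVC, 4.82 in SPA and 5.61 in MA. Ndufs4, a subunit whose loss is a known cause of complex I deficiency, had the lowest ratio of complex I in SPA over SVC at -0.21, with levels of 3.55 in SVC, 3.34 in SPA and 4.30 in MA. Ndufb3, Ndufb9 and Ndufa1 each rest on 1 probe.

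Complex II links the citric acid cycle to the respiratory chain and is encoded wholly in the nucleus. Sdha, the flavoprotein that oxidizes succinate, was at 3.27 in SVC, 3.40 in SPA and 4.28 in MA. Sdhb, the iron-sulfur subunit, was at 5.15 in SVC, 5.45 in SPA and 5.99 in MA. The membrane anchor Sdhc was at 2.91 in SVC, 3.09 in SPA and 3.55 in MA. Sdhd, the other anchor, was at 2.92 in SVC, 3.07 in SPA and 3.66 in MA. All 4 genes had the order SVC, SPA, MA. Their ratios in MA over SPA ran from 0.46 to 0.88, under 2-fold. Sdha reached 2-fold in MA over SVC, at 1.01. Of its 3 dimmer probes, 2 were higher in MA than in SPA, at 1.12 and 1.34, and 1 was lower, at -1.48. Those at 1.34 and -1.48 matched no RefSeq transcript, while that at 1.12 matched Sdha.

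Complex III passes electrons from coenzyme Q to cytochrome c, and its 8 members had a median log2 ratio of 0.78 in MA over SPA, with a range from 0.27 for Uqcrq to 1.36 for Uqcrfs1. Uqcrfs1, the Rieske iron-sulfur protein, was at 3.18 in SVC, 3.04 in SPA and 4.41 in MA, a 2.57-fold difference between MA and SPA. The local background of its SPA spot was marked as outlying. Uqcr11, a small accessory subunit, was at 5.60 in SVC, 5.90 in SPA and 6.89 in MA and lay just under 2-fold in MA over SPA, at 1.00 on the log2 scale.

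Complex V had the lowest median of the 5 complexes in MA over SPA, 0.50 over 15 members. The range ran from -1.03 for Atp5g1 to 0.89 for Atp5k. In SPA over SVC its members lay between -0.12 and 0.17. Atp5b, the catalytic beta subunit, had a log2 ratio of 0.50 in MA over SPA, and Atp5a1, the alpha subunit, one of 0.16 at the probe read. The dimmer probe of Atp5a1, also well above background on all arrays, had 0.72 in MA over SPA and -0.25 in SPA over SVC.

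Subunit c forms the ring that turns in the membrane, and 3 genes encode the same mature protein with different import sequences. Atp5g1 was at 6.12 in SVC, 6.0 in SPA and 4.97 in MA, and MA was 2.04-fold lower than SPA at this probe. Atp5g2 was at 6.30 in SVC, 6.29 in SPA and 6.07 in MA. Atp5g3 was at 6.30 in SVC, 6.27 in SPA and 6.91 in MA. The cultured fractions were thus alike for all 3 genes, and Atp5g3 was the one of the 3 with a higher level in MA at the probe read. Its dimmer probe, which matched no RefSeq transcript, had a ratio of -0.17. Atp5g1 had 3 probes, and they did not share a sign. The probe read lies at chr11:95934315-95934374 in mm9. A further probe at chr11:95934924-95934983 also had a lower level in MA, with a log2 ratio of -0.93 in MA over SPA. This probe and the probe read both matched Atp5g1 among the RefSeq transcripts. The remaining one, at chr11:95930317-95930376, had a higher level, at 1.28, and matched no RefSeq transcript. The SPA spot of the probe read was marked for its local background, as were the SVC and SPA spots of Atp5g2.

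Complex IV, cytochrome c oxidase, held the members with the largest differences in MA over SPA. Its 7 members outside the lists of isoforms had a median log2 ratio of 0.71 in MA over SPA. The highest was 0.91 for Ndufa4, which is now counted as a complex IV subunit. The exception, lower in MA, was Cox5a, on the matrix side, which was at 6.05 in SVC, 6.14 in SPA and 6.01 in MA. Among the 7 are Cox4i1, Cox6b1 and Cox7b, whose counterparts Cox4i2, Cox6b2 and Cox7b2 are in those lists.

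Cox8b, the heart and muscle type of subunit 8, was not well above background in SVC, at -6.88, or in SPA, at -4.91, and was at 2.85 in MA. Its probe lies at chr7:148084852-148084911 in mm9, the build of the array annotation. MA was therefore at least 217-fold higher than SPA and at least 223-fold higher than SVC. Its ubiquitous counterpart Cox8a was at 7.07 in SVC, 7.29 in SPA and 8.29 in MA, which is 2.0-fold higher in MA than in SPA. Both forms were highest in MA, and the ratio of MA over SPA was far greater for Cox8b.

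Cox7a1, the heart and muscle type of subunit 7a, was at -0.13 in SVC, 0.95 in SPA and 1.87 in MA. The level differed in steps, with SPA 2.12-fold above SVC and MA 1.89-fold above SPA. Cox7a2, the ubiquitous form, was at 5.63 in SVC, 5.70 in SPA and 6.23 in MA.

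Cox6a2, the heart and muscle type of subunit 6a, went the other way. It was at -0.70 in SVC, -0.13 in SPA and -3.10 in MA, so that MA was 7.84-fold lower than SPA and 5.29-fold lower than SVC. Its probe lies at chr7:135349160-135349219 in mm9. The ubiquitous Cox6a1 was at 7.75 in SVC, 7.95 in SPA and 8.58 in MA. The 3 genes of the heart and muscle type therefore did not share a direction in MA over SPA: Cox8b and Cox7a1 were higher and Cox6a2 was lower. Each of the 3 rests on 1 probe. The probes of each pair share a run of at most 6 of their 60 bases. This compares probe with probe, and whether a probe matches the transcript of the other isoform was not tested.

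**Figure D3:**
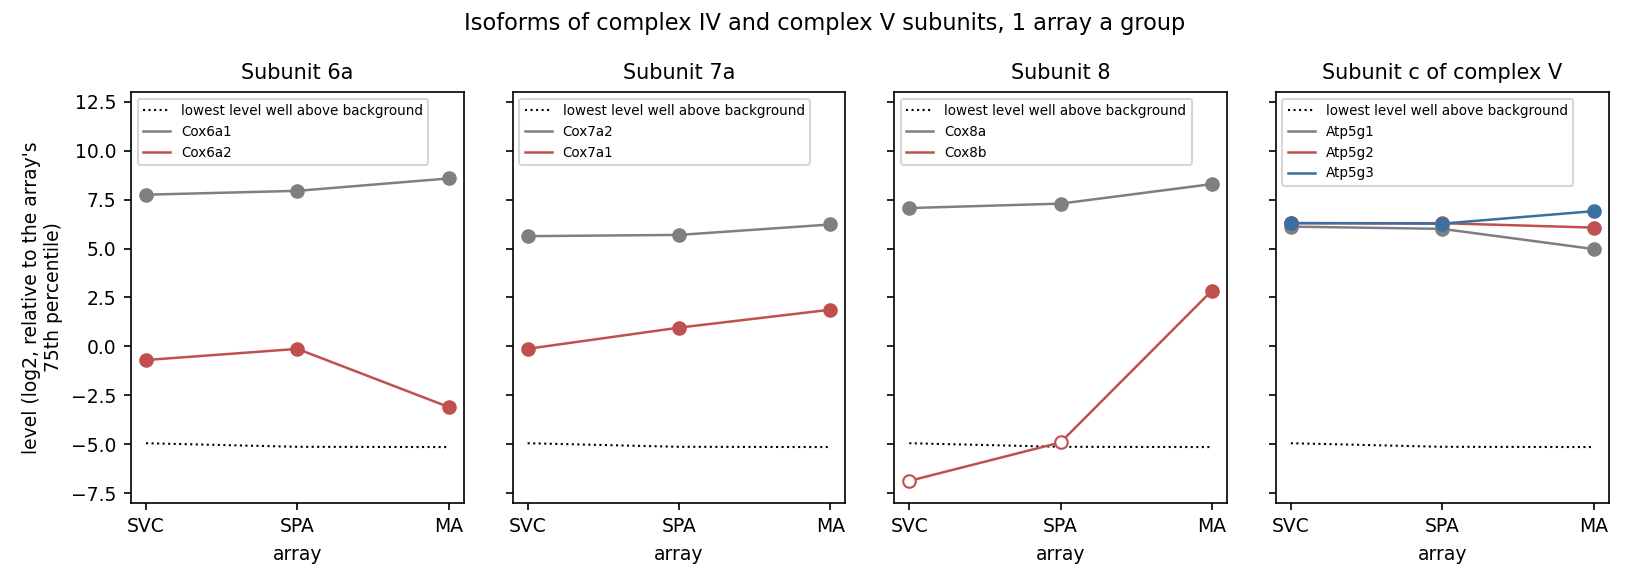
Levels of isoform genes on the SVC, SPA and MA arrays (y axis, log2 over the 75th percentile), 1 array a group; open circles are not well above background, the dotted line is the lowest level that was, and values are to be read along a line and not between lines, since probes differ in brightness. Cox8b is not well above background in SVC and SPA and lies at 2.85 in MA, Cox6a2 lies at -3.10 in MA, and each ubiquitous form is highest in MA.

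Cox8b and Cox7a1 are also known as genes of brown and beige fat, and other thermogenic markers were read beside them. Of 9 such genes outside the members, 5 were at least 2-fold higher in MA than in SPA and 1 was at least 2-fold lower. Over all genes these shares were 15.8% and 17.9%. Ucp1, the uncoupling protein of brown fat, was not well above background in SVC, at -6.97, or in SPA, at -7.20, and was at -2.23 in MA. Cidea, a lipid droplet protein of brown fat, was at -4.03 in SVC, -4.10 in SPA and 1.27 in MA. Dio2, which activates thyroid hormone, was at -1.54 in SVC, 0.01 in SPA and -3.80 in MA. Zic1 and Elovl3 were not well above background on any array. Well above background were 4 of the 9 genes in SVC, 4 in SPA and 7 in MA. Their summed log2 level was -0.72 in SVC, 0.37 in SPA and 1.76 in MA. The highest single gene in this sum was Dio2 in SVC and SPA and Cidea in MA. The sum is therefore not a measure of the 9 genes as a set.

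Markers of skeletal and heart muscle were read for the same 3 isoform genes. Of 12 markers, 1 was at least 2-fold higher in MA than in SPA and 2 were at least 2-fold lower. Their summed log2 level was 3.28 in SVC, 2.15 in SPA and 1.5 in MA. Acta1, the skeletal muscle actin, had the highest level of the 12 on each array, at 3.04 in SVC, 1.63 in SPA and 0.47 in MA. Ckm, Mb and Myh1 were not well above background on any array. The part of muscle cells in the levels of Cox6a2 was not tested.

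Of the testis isoforms of complex IV, 1 was well above background on all 3 arrays. Cox8c was not well above background on any array, with levels from -7.14 to -6.89. Cox7b2 was not well above background in SVC, at -4.78, and was at -3.97 in SPA and -3.85 in MA. Cox6b2, the isoform detected throughout, was at -0.57 in SVC, -1.01 in SPA and -0.50 in MA. Of 8 testis germ cell markers, 2 were well above background in SVC and in SPA and 4 in MA, and their summed log2 level ran from -1.39 to -0.68. Cox4i2, the lung form of subunit 4, was at -0.14 in SVC, -0.07 in SPA and -0.01 in MA.

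Of the members outside the lists of structural subunits, Ndufa4l2 had the largest difference between SVC and SPA. This paralog of Ndufa4 is known as a target of the hypoxia factor HIF-1. It was at 0.67 in SVC, 3.04 in SPA and 2.63 in MA, and SPA was 5.19-fold higher than SVC. MA lay 1.33-fold below SPA, so that both adipocyte fractions were above SVC. Cox7a2l, which helps to join complexes III and IV into supercomplexes, was at 5.72 in SVC, 5.96 in SPA and 5.37 in MA, with its highest level in SPA, where the local background was marked as outlying. Atp5c1-ps, a pseudogene, had a ratio of 0.97 in MA over SPA, and Atp5c1 one of 0.67. Their probes share a run of at most 6 bases, but whether either probe matches the transcript of the other gene was not tested. The probes of 3 members, Cox7c, Ndufb4 and Ndufs5, are annotated to a further gene, so that their signals may be shared.

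Of the 84 members 35 had several probes, 129 probes in all. For 26 genes more than 1 probe was measured in both MA and SPA, and in 20 of these all probes had the same sign. The median range between probes of a gene was 0.17 and the largest was 2.82 on the log2 scale. Among the 20 genes with several probes above the 75th percentile on both arrays, 19 had 1 sign, and the median range was 0.11. The exception was Atp5g1, whose probe of the other sign matched no RefSeq transcript. Further probes measured on both arrays with a mean level below 0 were 11. Of these, 6 were higher in MA and 5 lower, from -1.89 to 1.40. The 5 lower ones, of Atp5g3, Atp5j2, Ndufa10, Ndufa3 and Sdha, matched no RefSeq transcript. Of the 6 higher ones only that of Atp5sl matched one. Not among the 11 are dim probes of Ndufs1, Ndufs3 and Ndufv2, well above background in SPA and not in MA. They were lower in MA, with log2 bounds of -1.20, -0.28 and -0.50, and matched no RefSeq transcript. Whether the dim probes read the same transcripts as the bright ones was not tested. Of 23 brighter further probes 22 were higher in MA, among them probes of Atp5k and Atp5l that also matched none.

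**Figure D4:**
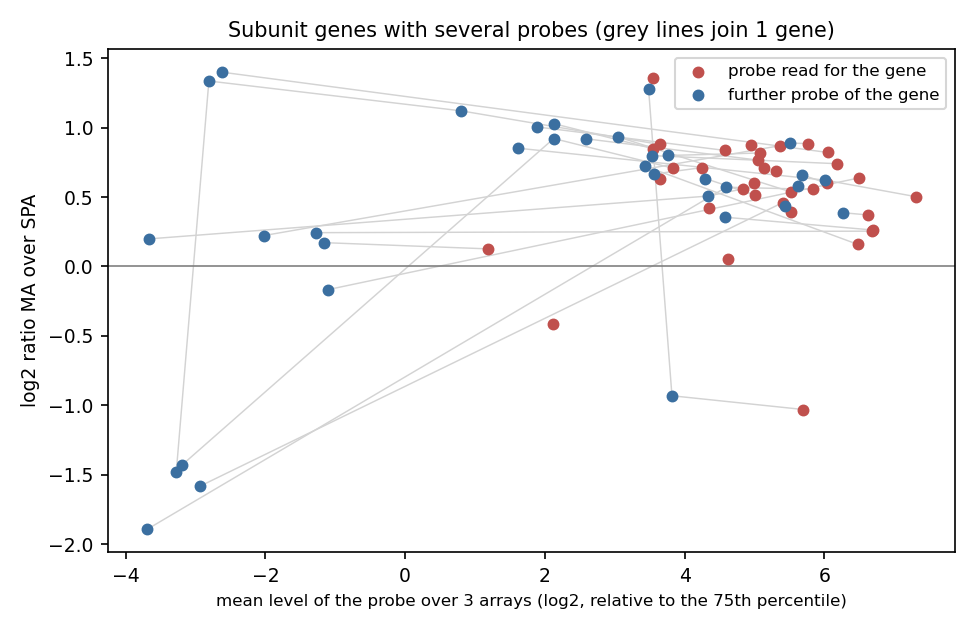
Log2 ratio of MA over SPA (y axis) against the mean level of the probe over 3 arrays (x axis, log2 relative to the 75th percentile). Shown are the probes measured on both arrays, for members with several probes. Red dots are the probes read, blue dots are further probes and grey lines join the probes of 1 gene. Of the 23 further probes with a mean level above 0, 22 lie above the zero line, and the 11 dimmer ones spread from -1.89 to 1.40. The dimmer ones below the line matched no RefSeq transcript.

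Genes that feed the chain were higher in MA as well. Of 18 genes of pyruvate dehydrogenase and the citric acid cycle, 17 had a ratio above 0 in MA over SPA. At least 2-fold higher were 11, and the median was 1.10. Over all genes 46.3% were above 0 and 15.8% at least 2-fold higher. The E1 beta subunit Pdhb was at 1.97 in SVC, 2.11 in SPA and 3.87 in MA, while Mdh2 was at 6.72 in SVC, 6.88 in SPA and 6.84 in MA. All 8 electron carriers and entry points were higher, with a median of 0.90, and 3 of them, Etfa, Etfb and Etfdh, which bring in electrons from fatty acid oxidation, were at least 2-fold higher. Cycs, cytochrome c, had a ratio of 0.83.

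The factors that build the complexes did not show one direction. The median log2 ratio of MA over SPA was 0.25 over 15 complex I assembly factors, 0.41 over 9 of complexes II and III and -0.01 over 21 of complex IV. Of the complex IV factors 1 was at least 2-fold higher, Cox19, beside 15.8% of all genes. At least 2-fold lower were 3, Coa4, Sco1 and Sco2, beside 17.9%, and the last 2 of these deliver copper. Atpif1, the inhibitor of complex V, was at 6.35 in SVC, 6.59 in SPA and 5.02 in MA. In SPA over SVC 0 genes of these assembly lists were at least 2-fold apart.

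Genes of the cytosolic ribosome and of the proteasome had medians below 0 in MA over SPA. The median was -0.85 over 78 cytosolic ribosomal protein genes, -0.65 over 38 proteasome genes and -0.11 over 77 mitochondrial ribosomal protein genes, beside 0.60 over the oxidative phosphorylation members. Of 80 cytosolic ribosomal protein genes read, 18 were at least 2-fold lower and 0 at least 2-fold higher. Over all genes 17.9% were at least 2-fold lower and 15.8% higher. These families were read by symbol, and S6 kinases, Rps19bp1, Psmc3ip and pseudogenes were left out after their values were seen. With them the medians were -0.84 and -0.66 for the ribosome and the proteasome.

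**Figure D5:**
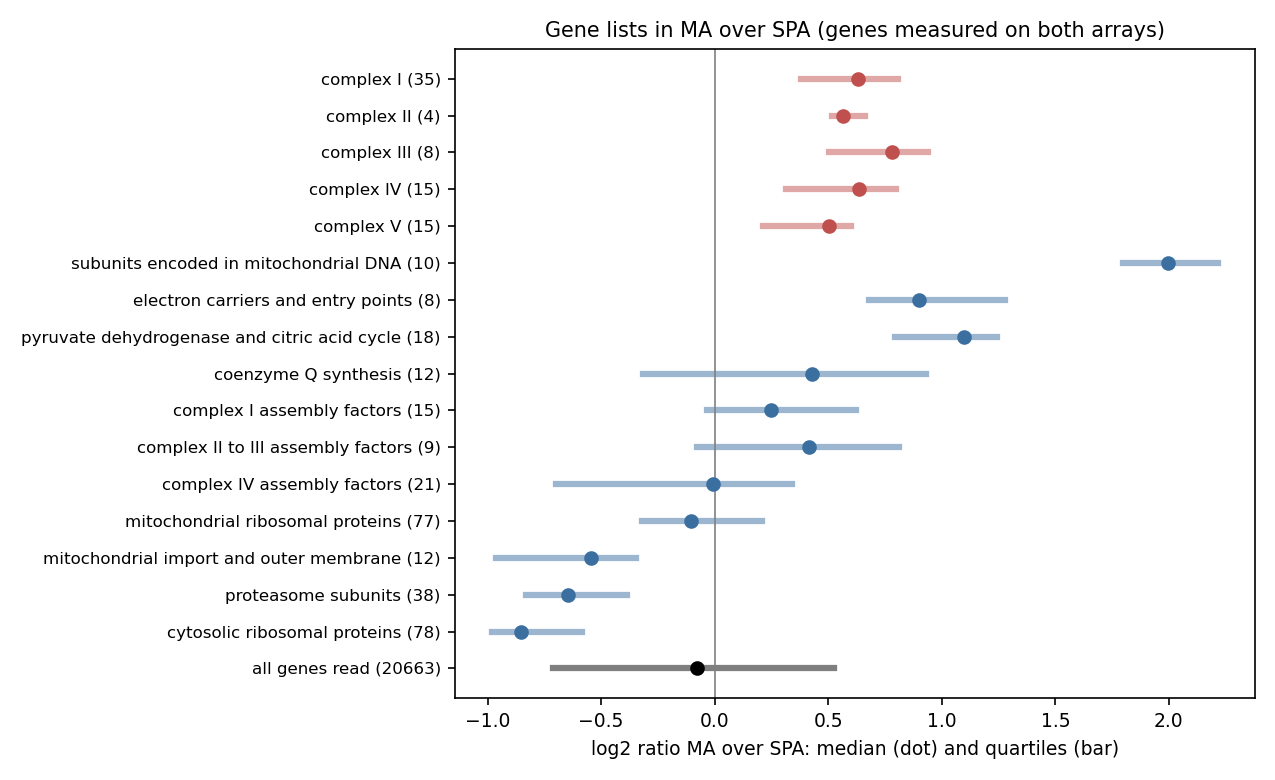
Median (dot) and quartiles (bar) of the log2 ratio of MA over SPA (x axis) for gene lists (y axis, with the number of genes measured on both arrays); red marks the 5 complexes and black all genes. The 5 complexes have medians from 0.50 to 0.78, and the cytosolic ribosomal genes lie at -0.85.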

How the data were processed

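RNA of SVC, SPA and MA was hybridised to 1 Agilent 1-colour array each, with the 3 arrays on 1 slide, and samples were grouped by their labels. The authors deposited the processed intensity of each spot from Agilent Feature Extraction (10.7.3.1 in the processing notes) and a second table of values, each a ratio of that signal to 1 constant per array, which served as an alternative. The study names GeneSpring GX, and its normalization is not given in the sources used here. Control spots and 75 to 129 outlier spots per array were left out, and each array was scaled to its 75th percentile, a processed signal of 366 to 439. Spots of 1 probe were averaged, and 1 probe stood for a gene, the one whose level was highest on average. Where a probe was well above background on 1 array of a pair only, the ratio is a lower bound, taken against its own signal on the dim array or the lowest well-above signal there, whichever was higher. A difference counted from 2-fold or, as in the study, from 5-fold. Members, gene lists and the rule for genes given in full were chosen with earlier results of these data known. That rule took, per comparison, the 5 highest and 5 lowest members, those past 5-fold, the isoforms, complex II and members detected on some arrays only. Positions of promoters and gene names come from RefSeq tables of GRCm38.p6, in which 68 members had a promoter. The scripts were tested on simulated data with known folds. Calculations used Python 3.11.15 and pandas 2.3.3, and limma 3.58.1 in R 4.3.3 did the normexp correction. The number of arrays limits the precision.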

Additional observations from a re-analysis of the deposited data

How the results depend on the processing

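No paired analysis was possible because each group has 1 array. The median and the 4 counts of members at least 2-fold or 5-fold apart were recomputed in each of the 3 comparisons under 9 alternatives and 1 more chosen after seeing the data, which left out spots with outlying local background. Of these values 126 stayed within the spot error or within 1.5 times the count, and 24 moved. None of the medians of the members changed sign. Those of all genes lay near 0 and did: without a filter on dim probes they were -0.07 in SPA over SVC and 0.01 in MA over SPA, and with normexp 0.0004 in MA over SVC. The scaling had the largest effect. Under quantile normalization the median was 1.05 in MA over SPA and 1.13 in MA over SVC. At least 2-fold higher were 47 and 53 members, beside 4071 and 4095 of all genes. At least 2-fold lower were 1 and 1 members, and at least 5-fold higher were 2 and 2. With a 75th percentile taken over the probes that every array detected, the MA over SPA median was 0.67, with 9 members at least 2-fold higher and 1 lower. With the normexp correction 1 member was at least 2-fold higher in SPA over SVC and 0 were 5-fold higher, and 0 were at least 5-fold lower in MA over SPA and in MA over SVC. With listed structural subunits only, SPA over SVC had 1 member past 2-fold and 0 past 5-fold upwards. At the probe with the largest ratio 9 members were at least 2-fold higher and 6 lower in MA over SPA, and 5 lower in MA over SVC. The median of the probes left 1 member at least 2-fold lower in MA over SPA, as did leaving out spots with outlying local background. With probes well above background on both arrays only, 0 members were at least 5-fold higher in MA over SPA and in MA over SVC, since Cox8b has a bound there. At the probe with the largest ratio, Atp5g1 turned to 1.28 in MA over SPA and 1.47 in MA over SVC, and Sdha to -1.11 in MA over SVC. Neither probe matched a RefSeq transcript. Cox7a1 was at 0.97 in SPA over SVC with normexp, under 2-fold. The cause was not tested. Signals near background limit the dim isoforms.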

Other observations

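The genes below were picked after their values were seen, apart from those of the lists. Of the subunits encoded in mitochondrial DNA, 10 were on the arrays. In MA over SPA 8 of them passed 2-fold upwards, beside 15.8% of all genes. Their median log2 ratio was 2.0. COX1, the catalytic subunit of complex IV, was at 6.59 in SVC, 6.52 in SPA and 8.78 in MA. CYTB, the cytochrome b of complex III, was at 6.93 in SVC, 6.59 in SPA and 8.68 in MA. ND5 of complex I was at 3.07 in SVC, 3.06 in SPA and 5.55 in MA. COX2 was at 8.64 in SVC, 8.53 in SPA and 9.08 in MA, under 2-fold. ND6, the one of these genes that is read from the other strand of mitochondrial DNA, was at 1.73 in SVC, 2.02 in SPA and -0.09 in MA. In SPA over SVC the 10 genes had a median of -0.17 and 0 were 2-fold apart.

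Of 12 genes of mitochondrial import and the outer membrane, 11 were lower in MA than in SPA. Their median log2 ratio was -0.55. Vdac2, a channel of the outer membrane, was at 5.82 in SVC, 5.91 in SPA and 4.82 in MA, and Tomm40, the import pore, was at 4.32 in SVC, 4.18 in SPA and 3.22 in MA. Of 17 regulators of mitochondrial biogenesis read, 2 were at least 2-fold higher in MA than in SPA and 2 lower. Over all genes these shares were 15.8% and 17.9%. Ppargc1a, the coactivator PGC-1alpha, was not well above background in SVC or SPA and was at -1.81 in MA, and Ppara, a nuclear receptor of fatty acid oxidation, was at -4.22 in SVC, -3.13 in SPA and 0.71 in MA. Nrf1 was at 0.36 in SVC, 0.13 in SPA and -0.45 in MA, and Tfam, which packs and transcribes mitochondrial DNA, was at 0.50 in SVC, 0.50 in SPA and 0.29 in MA. In coenzyme Q synthesis 3 of 12 genes were at least 2-fold higher in MA, among them Adck3, at -5.22 in SVC, where it was not well above background, -4.25 in SPA and 0.53 in MA. Ucp2 and Ucp3, relatives of Ucp1, had log2 ratios of 0.65 and 0.74 in SPA over SVC and of 0.27 and 0.07 in MA over SPA.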
